A study of Mus musculus with 6 samples.

Results

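The genes of oxidative phosphorylation were examined complex by complex, and by the genome that encodes them, in the colon of Gm31629-/- mice and WT littermates during colitis. Members were the rows of the table whose mouse symbol marks a subunit of complexes I to V, either nuclear (Nduf, Sdh, Uqcr, Cox5 to Cox8 and Atp5 genes) or mitochondrial (mt-Nd, mt-Co, mt-Cytb and mt-Atp genes), with pseudogenes left out. They came to 92 of the 27546 genes listed. The nuclear genome encodes 80 of them, of which 37 belong to complex I, 4 to complex II, 8 to complex III, 14 to complex IV and 17 to complex V. The mitochondrial genome encodes the other 12, of which 7 belong to complex I, 1 to complex III, 3 to complex IV and 1 to complex V. Cox4i1, Cox4i2, Cyc1 and Ndufab1 encode subunits too, but their symbols fall outside this rule, and they are given with the related genes.

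Both groups were C57BL/6 mice, 8 weeks old, that drank 3% DSS (dextran sulfate sodium), which damages the lining of the colon, over 7 days and were killed on day 8. Each group had 3 mice, with 1 RNA-Seq library of distal colon per mouse. All mice were thus inflamed, and no untreated mice were compared. Gm31629 is a long noncoding RNA, and its level was not analysed here, so genotypes were taken from the labels.

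Oxidative phosphorylation is the main source of ATP in most cells. Complex I takes electrons from NADH and complex II, which is also the succinate dehydrogenase of the citric acid cycle, takes them from succinate. Complex III passes them to cytochrome c, complex IV hands them to oxygen, and complex V (ATP synthase) uses the resulting proton gradient to make ATP. Complex II is encoded wholly in the nucleus, whereas the others are built from nuclear and mitochondrial subunits. Absorptive colonocytes rely on this pathway to burn butyrate from the gut flora.

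By whole-fragment steps in the FPKM values (fragments per kilobase of gene, scaled to the mapped total of the library), the libraries held 18005900 to 18795100 mapped fragments. The 14657 genes whose mean over the 6 mice reached 0.5 FPKM entered a limma test on log2(FPKM + 1), and a gene passed at a Benjamini-Hochberg adjusted p under 0.05. A fold change below is a fitted difference of log2(FPKM + 1), Gm31629-/- minus WT, given with its SE. With 3 mice against 3, an exact permutation test of a single gene cannot give a two-sided p below 0.10. Y-linked transcripts summed to 29.2 FPKM in Gm31629-/- mouse 1 and to 0 FPKM in the other 5 libraries, whereas the methods describe male mice. Xist, transcribed in female cells, read 8.35 to 13.8 FPKM in those 5 libraries and 0.0061 FPKM in Gm31629-/- mouse 1. By these transcripts sex was not balanced between the groups, and only that mouse was male. Leaving that mouse out took 1 member from those that passed and added 2.

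Of the 92 members, 89 met the filter on low values. In Gm31629-/- colon, 35 of them were lower and 4 were higher, against 14.6% of all tested genes lower and 28.9% higher. With a log2 fold change beyond 1 as well, 11 members were lower and 2 were higher, against 4.64% and 18.4% of all tested genes. The 3 Gm31629-/- mice lay wholly below the 3 WT mice for 49 members and wholly above them for 4, against 21.5% and 36.3% of all tested genes. The median fold change was −0.48 over the 77 tested nuclear members and −0.34 over the 12 mitochondrial members, where that of all tested genes was 0.15. In bulk tissue, fewer cells of a type and less RNA per cell cannot be told apart.

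The counts of lower nuclear members by complex are to be read against the 14.6% of all tested genes that were lower. All 4 complex II genes were lower, with a median of −0.83. In complex V 9 of 17 were lower (median −0.56), in complex III 4 of 8 (median −0.64), in complex I 15 of 36 (median −0.39) and in complex IV 2 of 12 (median −0.33), a share of 16.7% that is near that of all tested genes. No difference between complexes was tested. Ndufa4, named as a complex I gene, is now regarded as a complex IV subunit, and with Ndufa4 and its paralog Ndufa4l2 moved there the medians were −0.41 for complex I and −0.25 for complex IV.

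**Figure D1:**
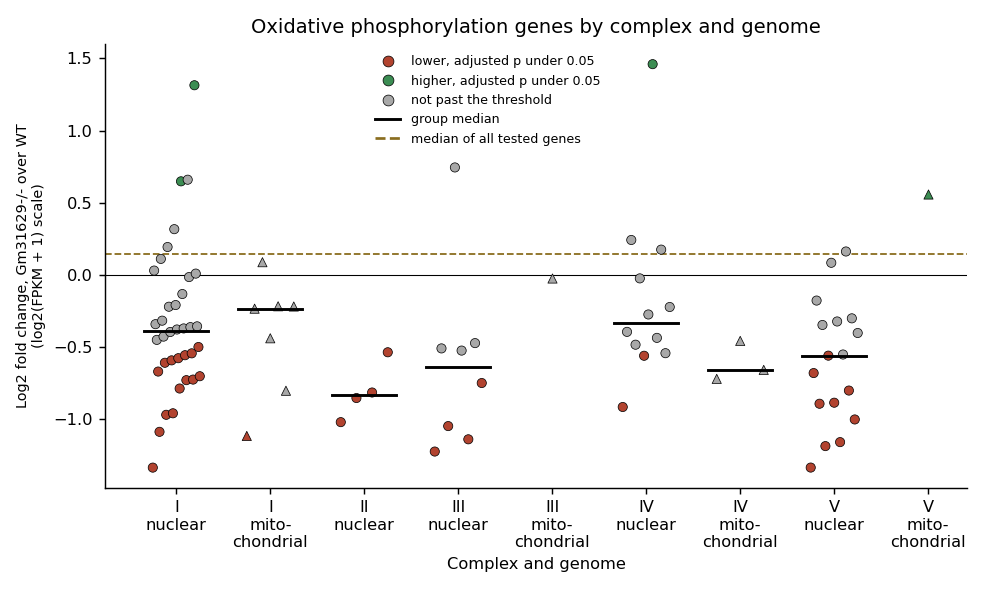
Fold change of each of the 89 tested members (vertical axis, log2(FPKM + 1) scale, Gm31629-/- minus WT) by complex and genome (horizontal axis). Circles are nuclear and triangles mitochondrial genes, colour gives the side of the threshold, solid bars are group medians and the dashed line is the median of all tested genes at 0.15. All 4 points of complex II are lower, and most points of complex IV are grey.

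The sign of these medians depended on scaling. The nuclear median lay 0.63 below that of all tested genes. After every library was scaled to 15 colon epithelial marker genes, the median of all tested genes moved to 0.61 and that of nuclear members to 0.13, which was 0.48 below it. The medians of complexes I, IV and V turned positive there, at 0.19, 0.28 and 0.049, and those of complexes II and III stayed negative, at −0.22 and −0.028. On that scale 6 members remained lower, namely Ndufa10, Ndufa9, Uqcrc1, Atp5g1, Atp5b and mt-Nd4l, and 17 were higher. Of all 14657 tested genes, 7942 passed on that scale, of which 503 were lower and 93.7% higher. All 11 members with a log2 fold change below −1 kept a negative sign on it. The scaling used the mean log2 level of the 15 markers, among which Cdx2 had the most negative fold change (−3.14, next Cdx1 at −1.19). Cdx2 read 82.1, 11.6 and 14.9 FPKM in Gm31629-/- mice and 200, 238 and 234 FPKM in WT mice. The median fold change of the 15 markers was −0.50, beside −0.48 for nuclear members. A scale built from a mean is pulled by Cdx2, so the change of sign depends in part on this gene. Scaling without Cdx2 was not tested.

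The counts also depended on single mice. Of the 35 lower members, 18 passed in each of the 6 fits that leave out a mouse, among them all 11 with a log2 fold change below −1. Without WT mouse 1 the lower members numbered 19, and without WT mouse 3 they numbered 18. Calls fell over all genes too, with 1261 of 14865 tested genes lower without WT mouse 1. Without WT mouse 3 it was 978 of 14842, against 2138 of 14657 with all mice. Gm31629-/- mouse 2 had the lowest level of the 3 Gm31629-/- mice for 81 of the 89 tested members. Without it the nuclear median was −0.27, which lay 0.38 below that of all tested genes, and 6 members were lower with a log2 fold change below −1.

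In complex I, the accessory subunits Ndufa10 and Ndufa9 were lower by over 1 on the log2 scale. Ndufa10 read 30.59, 21.93 and 26.03 FPKM in Gm31629-/- mice and 68.8, 60.2 and 72.3 FPKM in WT mice. Its fold change was −1.33 ± 0.16 (SE, limma adjusted p = 0.00123). Ndufa9 read 23.6, 21.1 and 22.1 FPKM in Gm31629-/- mice and 49.0, 45.2 and 50.9 FPKM in WT mice, a fold change of −1.09 ± 0.13 (limma adjusted p = 0.00104). For both genes every Gm31629-/- mouse lay below every WT mouse.

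The 7 nuclear genes of the complex I core, which carry out electron transfer, were lower in 5 cases, against 14.6% of all tested genes. Ndufs8, an iron-sulfur subunit, had means of 49.7 ± 1.23 FPKM in Gm31629-/- mice and 98.6 ± 12.4 FPKM in WT mice (SD, n = 3 each). Ndufv1, which binds NADH and FMN, had means of 36.3 ± 4.49 and 71.3 ± 7.50 FPKM. The groups did not overlap for either gene. Ndufs7 (−0.61) and Ndufs3 (−0.58) were lower as well, whereas Ndufs1 (−0.36, limma adjusted p = 0.170) and Ndufv2 (−0.36, limma adjusted p = 0.161) did not pass. Of Ndufs3, 75.7% of the transcript is covered by a near-identical copy elsewhere in the annotation, so its value is uncertain.

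Of the 29 tested accessory genes of complex I, 10 were lower and 2 were higher, against 14.6% and 28.9% of all tested genes. Ndufb9 had the highest mean over the 6 mice, with 199, 125 and 198 FPKM in Gm31629-/- mice and 233, 207 and 222 FPKM in WT mice. Its groups did not overlap, but its fold change of −0.37 did not pass (limma adjusted p = 0.190), and 19.5% of its exon length is shared with Gm49356 on the same strand. Ndufa6, another accessory subunit, was above Ndufb9 in all 3 Gm31629-/- mice and below it in all 3 WT mice, with 219, 133 and 220 FPKM against 132, 169 and 149 FPKM, but its fold change of 0.32 did not pass (limma adjusted p = 0.295). Ndufa4 read 36.4 to 49.1 FPKM in Gm31629-/- mice and 40.8 to 49.7 FPKM in WT mice, and these ranges overlapped.

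Complex II was lower in each of its 4 subunits, although of the 6 fits that leave out a mouse Sdhc passed in 2 and Sdhd in 4, while Sdha and Sdhb passed in all 6. Sdhb, the iron-sulfur subunit, read 64.2, 39.6 and 53.9 FPKM in Gm31629-/- mice and 111, 96.3 and 110 FPKM in WT mice, a fold change of −1.02 ± 0.20 (limma adjusted p = 0.00643). Sdha, the flavoprotein that oxidises succinate, fell by 0.81 on the log2 scale. Of the membrane anchors, Sdhd fell by 0.85 and Sdhc by 0.53. Sdhd was the most abundant, with 166, 102 and 161 FPKM in Gm31629-/- mice and 248, 247 and 267 FPKM in WT mice. The groups did not overlap for any of these genes. Summed over the 4 genes, Gm31629-/- mice held 363, 232 and 334 FPKM and WT mice 547, 517 and 565 FPKM. On the epithelial scale Sdhc turned to 0.071 and the median of the complex moved to −0.22.

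In complex III, the 3 large nuclear members passed, whereas most small ones and the mitochondrial mt-Cytb (−0.02) did not. Uqcrc1 and Uqcrc2 form the core dimer and Uqcrfs1 is the Rieske iron-sulfur protein, and all 3 were lower by over 1 on the log2 scale. Uqcrc1 read 57.9, 51.1 and 54.9 FPKM in Gm31629-/- mice and 137, 112 and 139 FPKM in WT mice, a fold change of −1.22 ± 0.15 (limma adjusted p = 0.00110). Uqcrfs1 read 135, 78.9 and 114 FPKM against 239, 217 and 253 FPKM and fell by 1.14. Uqcrc2 read 68.5, 45.7 and 65.6 FPKM against 128, 116 and 125 FPKM and fell by 1.05, and 19.7% of its exon length is shared with Pdzd9 on the opposite strand. None of the 3 genes overlapped between groups. Of the 5 small subunits, Uqcr11 was lower (−0.75), and Uqcrh, Uqcr10 and Uqcrq had fold changes of −0.47 to −0.52 that did not pass.

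Uqcrb, a small subunit near the quinone-binding site, had the most positive fold change of the complex, 0.75 ± 0.31 (limma adjusted p = 0.0865). It read 86.1, 35.3 and 59.7 FPKM in Gm31629-/- mice and 36.5, 35.1 and 29.1 FPKM in WT mice, so that mouse 2 lay among the WT mice. Near-identical copies cover 39.8% of its transcript. Uqcr10 had the highest mean of the nuclear genes of the complex over the 6 mice, although Uqcrfs1 was above it in each WT mouse, with 210, 98.6 and 197 FPKM against 231, 203 and 252 FPKM in WT mice, and its groups overlapped.

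In complex IV, Cox5a and Cox7a2l were the lower genes among 12 tested. Cox5a, which sits on the matrix side of the enzyme, read 42.4, 31.3 and 46.5 FPKM in Gm31629-/- mice and 72.7, 74.7 and 78.8 FPKM in WT mice, a fold change of −0.91 ± 0.17 (limma adjusted p = 0.00608). Cox7a2l, described as a link between complexes III and IV in supercomplexes, a role not examined here, fell by 0.56 on the log2 scale. It passed in 1 of the 6 fits that leave out a mouse. Cox6a1 was the most abundant nuclear member of any complex, with 860, 491 and 931 FPKM in Gm31629-/- mice and 1014, 917 and 961 FPKM in WT mice. Its groups overlapped (fold change −0.39, limma adjusted p = 0.260), as Gm31629-/- mouse 3 lay among the WT mice and mouse 2 far below them.

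Several complex IV subunits exist as a common form and a form known from muscle, heart or testis. The common forms made up nearly all of each pair in both groups. Cox7a1, the form of heart and skeletal muscle, made up 6.24% to 9.28% of the Cox7a1 and Cox7a2 sum in Gm31629-/- mice and 5.44% to 5.72% in WT mice, and its fold change of 0.24 did not pass (limma adjusted p = 0.532). Cox6b2, described mostly from testis, made up 0.986% to 5.29% of the Cox6b1 and Cox6b2 sum in Gm31629-/- mice and 0.275% to 0.450% in WT mice. Cox6b1 itself had a fold change of −0.44 that did not pass. Cox8a, the common form beside Cox8b, read 369 to 665 FPKM in Gm31629-/- mice and 727 to 768 FPKM in WT mice, and its fold change of −0.48 did not pass (limma adjusted p = 0.153).

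In complex V, 7 of the 9 lower genes encode the F1 part or the c ring. The F1 part holds the catalytic sites, and 4 of its 5 genes were lower, against 14.6% of all tested genes. Atp5b, the catalytic beta subunit, read 257, 204 and 260 FPKM in Gm31629-/- mice and 570, 496 and 571 FPKM in WT mice, a fold change of −1.18 ± 0.17 (limma adjusted p = 0.00192). Atp5a1, the alpha subunit, was the most abundant gene of the complex, with 337, 229 and 310 FPKM against 653, 592 and 689 FPKM, and fell by 1.16. Atp5c1, the gamma subunit of the central stalk, read 125, 89.3 and 111 FPKM against 219, 207 and 221 FPKM and fell by 1.00, and Atp5d, the delta subunit, fell by 0.88. For these 4 genes every Gm31629-/- mouse lay below every WT mouse. Atp5e, the small epsilon subunit, read 36.4 to 46.7 FPKM in Gm31629-/- mice and 43.2 to 47.8 FPKM in WT mice, and did not pass.

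The c ring, which turns as protons pass, is encoded by Atp5g1, Atp5g2 and Atp5g3, whose mature proteins are alike. All 3 genes were lower, against 14.6% of all tested genes, and Atp5g1 most of all. Atp5g1 read 17.3, 11.8 and 15.9 FPKM in Gm31629-/- mice and 42.0, 32.3 and 43.0 FPKM in WT mice, a fold change of −1.33 ± 0.19 (limma adjusted p = 0.00211). Atp5g2 fell by 0.68 and Atp5g3 by 0.80. The share of Atp5g1 in the sum of the 3 genes was 9.40%, 9.94% and 9.595% in Gm31629-/- mice and 15.01%, 13.03% and 14.3% in WT mice, and these shares did not overlap. Atp5g3 held most of the sum in every mouse, from 59.7% to 67.2%. A processed pseudogene, Gm10039, matches 411 bases of Atp5g1 at 99.8% identity and itself averaged 43.8 FPKM in Gm31629-/- mice and 108 FPKM in WT mice, so the level of Atp5g1 and its share are uncertain.

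Of the 4 peripheral stalk genes, Atp5o (−0.89) and Atp5f1 (−0.56) were lower, and Atp5h (−0.32) and Atp5j (0.08) did not pass. Exons of Atp5o share 18.1% of their length with an antisense gene. None of the 4 small membrane subunits passed by limma or by voom on recovered fragments, and 1, Atp5j2 (−0.55), had an unadjusted limma p under 0.05. Atp5l had the most positive fold change of the nuclear genes of complex V, at 0.16 (limma adjusted p = 0.494).

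**Figure D2:**
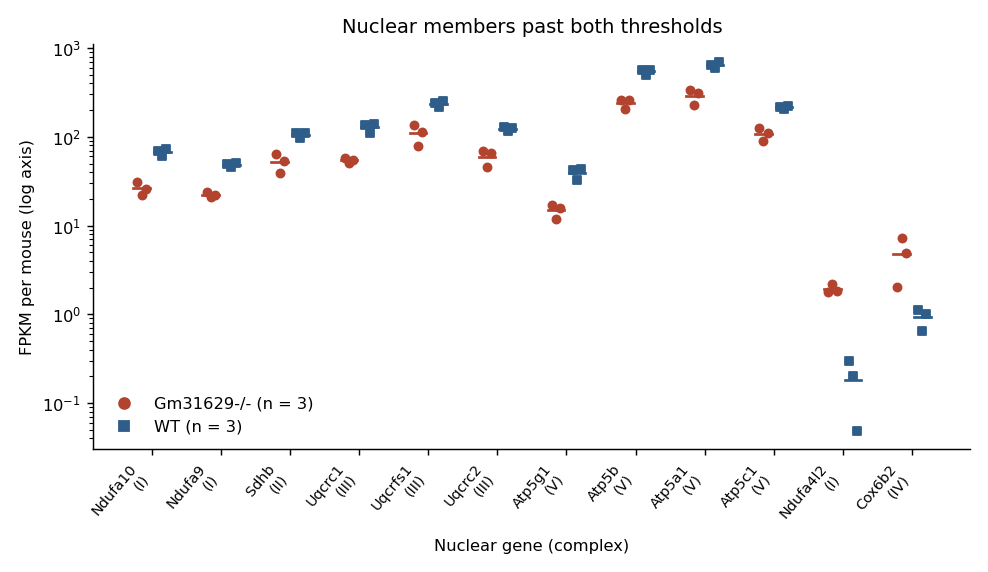
FPKM in each mouse (vertical log axis) for the 10 nuclear members lower and the 2 higher with a log2 fold change beyond 1 (horizontal axis, complex in brackets). Red circles are Gm31629-/- mice, blue squares WT mice and short lines group means. No pair of groups overlaps, and the higher genes sit below 10 FPKM while the lower ones sit above it.

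The 4 higher members were Ndufa4l2, Cox6b2, Ndufa5 and mt-Atp6. Ndufa4l2, a paralog of Ndufa4 known to be induced by low oxygen, read 1.79, 2.18 and 1.84 FPKM in Gm31629-/- mice and 0.296, 0.203 and 0.0486 FPKM in WT mice. These WT values correspond to 6, 4 and 1 fragments, and the gene met the filter only through the Gm31629-/- group. Its fold change was 1.31 ± 0.16 (limma adjusted p = 0.00112). Cox6b2 read 2.01, 7.24 and 4.91 FPKM against 1.12, 0.652 and 1.01 FPKM, a fold change of 1.46 ± 0.36 (limma adjusted p = 0.0156). Ndufa5, an accessory subunit of the matrix arm of complex I, read 29.3, 18.4 and 23.8 FPKM against 16.9, 13.7 and 13.4 FPKM (fold change 0.65, limma adjusted p = 0.0343), and passed in 1 of the 6 fits that leave out a mouse. Ndufa4l2 passed in 6 of these fits and Cox6b2 in 4. The summed level of 12 smooth muscle markers was 1168 to 1799.6 FPKM in Gm31629-/- mice and 21.8 to 38.5 FPKM in WT mice, and its part in the rise of Ndufa4l2 and Cox6b2 was not tested.

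The lower nuclear members were also counted by coding length. Of the 21 with a coding sequence of at least 600 bases, 18 were lower and none had a positive fold change, with a median of −0.96. Of the 56 with a shorter one, 16 were lower and 3 were higher, with a median of −0.39, and the difference between these shares was not tested. Over all tested coding genes, 15.8% of those with at least 600 coding bases were lower and 12.5% of the shorter ones. Spearman's rho between fold change and coding length was −0.60 over the 77 nuclear members and −0.04 over 12950 coding genes. These points share the same 6 libraries and genes are not independent replicates. The exceptions above 600 bases were Ndufs1, Ndufv2 and Atp5s, the last a low gene of 1.70 to 3.78 FPKM. Fold change also went with abundance, with a rho of −0.42 over nuclear members and −0.38 over all coding genes. The cut at 600 bases was chosen after the values were seen.

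**Figure D3:**
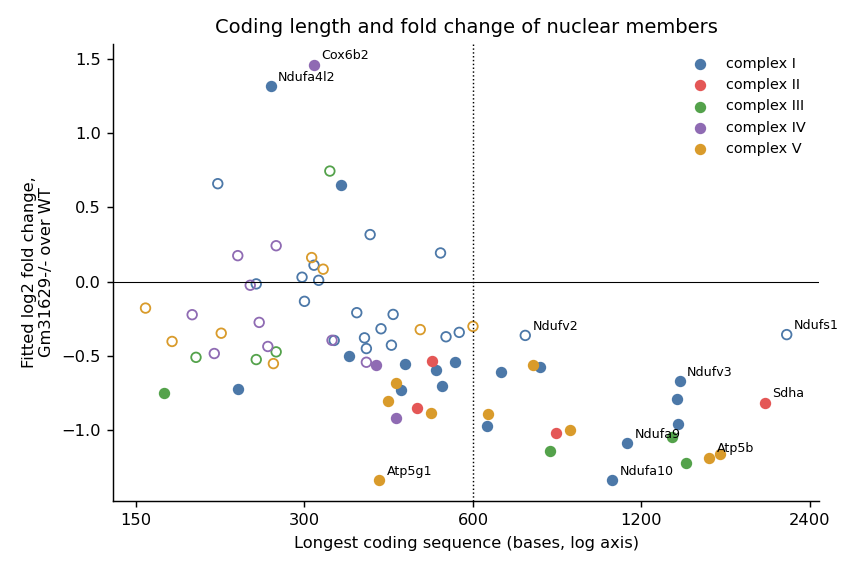
Fold change (vertical axis) against the longest coding sequence in bases (horizontal log axis) for the 77 tested nuclear members, coloured by complex. Filled points passed the threshold, open points did not, and the dotted line stands at 600 bases. To the right of the line 18 of 21 points are filled and all lie below 0.

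The 12 mitochondrial members fell into those that are unique to the mitochondrial genome and those with near-identical nuclear copies, which changes how their values can be read. A stretch of chromosome 1 carries pseudogenes of mt-Co2, mt-Atp6, mt-Co3, mt-Nd3 and mt-Nd4l, each over nearly the whole gene at 99.7% to 100% identity, and of 63.6% of mt-Nd4. To show how alike they are, the first 60 bases of mt-Nd3 (chrM:9459-9518, plus strand) and of its pseudogene Gm28438 (chr1:24613060-24613119, minus strand) are set side by side, with their difference in capitals.
mt-Nd3: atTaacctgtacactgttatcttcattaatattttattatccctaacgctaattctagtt
Gm28438: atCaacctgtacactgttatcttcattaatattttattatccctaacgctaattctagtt
Over 345 aligned bases they differ at 1 position, T3C, counted from 1 at the first base of mt-Nd3. Sequences and coordinates are those of GENCODE M21 (GRCm38).

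The 5 members without such a copy, mt-Nd1, mt-Nd2, mt-Nd5, mt-Nd6 and mt-Cytb, read 283 to 2796 FPKM. None of them passed by limma or by voom on recovered fragments, and 1, mt-Nd5, had an unadjusted limma p under 0.05. Their fold changes were −0.22 for mt-Nd1, −0.44 for mt-Nd2, −0.80 for mt-Nd5, −0.23 for mt-Nd6 and −0.02 for mt-Cytb, all with overlapping groups. mt-Nd5, the largest of the proton-pumping subunits, came nearest, with 732, 395 and 347 FPKM in Gm31629-/- mice and 1018, 751 and 695 FPKM in WT mice (limma adjusted p = 0.0738). mt-Cytb, the only mitochondrial subunit of complex III, had means of 2149 ± 563 and 2149 ± 257 FPKM (SD, n = 3 each).

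The genes copied in full at 99.7% identity or more read far lower, from 0.547 to 115 FPKM, although they lie on the same genome. Their values are uncertain, since reads that match a copy can be split or dropped in counting. The copies themselves had values of the same order, as Gm10925, the copy of mt-Atp6 (chr1:24613974-24614651), read 71.7, 38.2 and 61.8 FPKM in Gm31629-/- mice and 61.1, 56.3 and 52.6 FPKM in WT mice, which is more than mt-Atp6 in every mouse. mt-Nd4l and mt-Atp6, the mitochondrial members that passed, were both of this kind. mt-Nd4l read 0.549, 0.547 and 0.733 FPKM in Gm31629-/- mice and 3.64, 2.06 and 1.97 FPKM in WT mice (fold change −1.11, limma adjusted p = 0.00608), from 3, 3 and 4 fragments against 20, 11 and 11. mt-Atp6 read 27.9, 24.2 and 25.7 FPKM against 17.0, 18.8 and 16.0 FPKM (fold change 0.56, limma adjusted p = 0.0152). mt-Co2 and mt-Co3 had fold changes of −0.66 and −0.46, mt-Nd3 of −0.22 and the partly copied mt-Nd4 of 0.09, none of which passed.

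mt-Co1, the catalytic subunit of complex IV, was the most abundant member, with 9403, 5785 and 9104 FPKM in Gm31629-/- mice and 15580, 12654 and 11207 FPKM in WT mice. All 3 Gm31629-/- mice lay below the WT mice, but the fold change of −0.72 ± 0.30 did not pass (limma adjusted p = 0.0901). With voom on recovered fragments it did pass (adjusted p = 0.0388). Its copy over the full length, on chromosome 2, has 97.6% identity, and a shorter one on chromosome 1, Gm29216, matches 483 bases at 99.8% and read 17.2 to 42.2 FPKM. It made up 51.3% to 61.2% of the mitochondrial sum in Gm31629-/- mice and 61.1% to 65.1% in WT mice, so that these shares just overlapped.

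**Figure D4:**
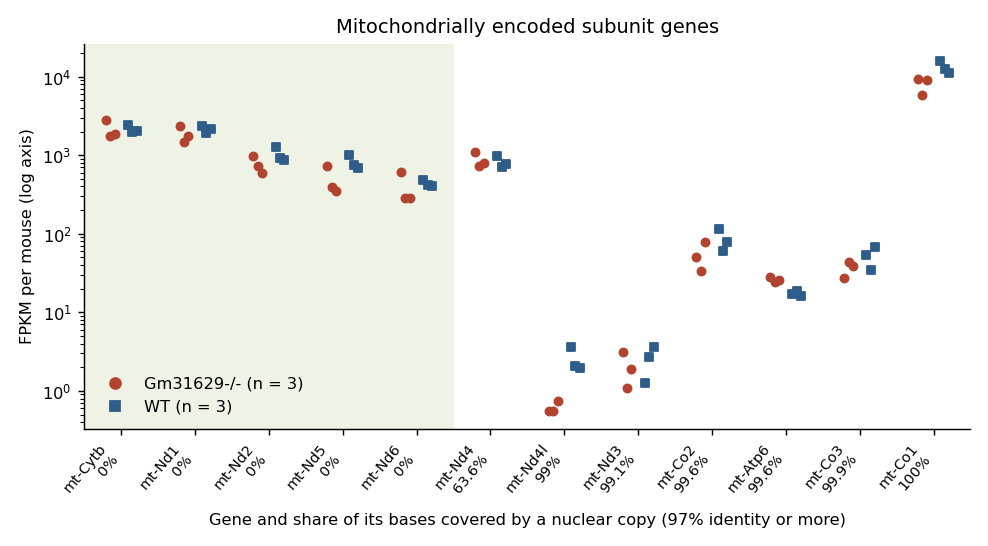
FPKM in each mouse (vertical log axis) of the 12 mitochondrial members (horizontal axis, with the share of each gene covered by nuclear copies of at least 97% identity). Red circles are Gm31629-/- mice and blue squares WT mice, and the shaded genes have no such copy. The 5 shaded genes lie at 283 to 2796 FPKM, and of the fully copied genes only mt-Co1 is as high.

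The balance of nuclear to mitochondrial members overlapped between the groups. The mean log2(FPKM + 1) of the 77 tested nuclear members minus that of the 12 mitochondrial members was −2.06, −2.03 and −1.81 in Gm31629-/- mice and −2.03, −1.82 and −1.85 in WT mice, and these overlapped. Against the 5 uncopied mitochondrial members alone, the difference was −4.61, −4.34 and −3.88 in Gm31629-/- mice and −4.39, −4.15 and −4.06 in WT mice, which also overlapped. The nuclear members summed to 6729, 4421 and 6623 FPKM in Gm31629-/- mice and 8932, 8303 and 8953 FPKM in WT mice. The mitochondrial members summed to 18124, 11271 and 14883 FPKM and to 24293, 19425.5 and 18353 FPKM. The nuclear sums did not overlap between groups. The mitochondrial sums, over 50% of which is mt-Co1, were apart by a narrow margin, and the sums of the 5 uncopied members overlapped, at 7499, 4648.5 and 4839 FPKM in Gm31629-/- mice and 7552, 5945 and 6196 FPKM in WT mice.

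Promoters of the nuclear members were searched for short motifs of factors known for respiratory genes. Windows from 250 bases before to 50 after the start (RefSeq, GRCm38.p6) were found for 67 of the 92 members, 72 windows in all, and both strands were read. The NRF1 motif GCATGCGC was in 13.9% of the members' windows and in 2.71% of all 32851 windows. The YY1 motif AAGATGGCG was in 9.72% and 1.40%, the ETS motif CCGGAAGT in 6.94% and 3.89%, and the estrogen-related receptor (ERR) motif CAAGGTCA in 5.56% and 1.56%. Matches on opposite strands can overlap, as GCGCATGCGC holds the NRF1 motif on both. Of the 30 lower members with a window, 5 held the NRF1, 3 the YY1, 2 the ETS and 2 the ERR motif. Among all 67 members with a window these numbers were 10, 7, 5 and 4, and a link between motif and fold change was not tested. Shown here are lower members with a motif, which stands in capitals, read 5′ to 3′ on the strand of the gene. For Sdhb (chr4:140961121-140961270, plus), Atp5g2 (chr15:102671048-102671197, minus) and Atp5g3 (chr2:73911327-73911476, minus) these are the 150 bases before the start, and for Uqcrc1 (chr9:108936669-108936696, plus) and Ndufa9 (chr6:126849098-126849125, minus) 28 bases just past it.
Sdhb: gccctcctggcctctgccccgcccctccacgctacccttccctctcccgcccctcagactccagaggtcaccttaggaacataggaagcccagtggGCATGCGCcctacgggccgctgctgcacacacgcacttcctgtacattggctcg
Atp5g2: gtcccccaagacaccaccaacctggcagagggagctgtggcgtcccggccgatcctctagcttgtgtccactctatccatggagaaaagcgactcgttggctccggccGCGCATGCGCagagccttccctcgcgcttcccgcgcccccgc
Atp5g3: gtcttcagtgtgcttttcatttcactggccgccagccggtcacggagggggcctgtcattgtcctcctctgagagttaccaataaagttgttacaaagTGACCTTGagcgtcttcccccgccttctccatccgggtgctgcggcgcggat
Uqcrc1: ctccgctctGCGCATGCGCagcgcggct
Ndufa9: attgtgggagAAGATGGCGgccgccgtc
The capitals mark the NRF1 motif in Sdhb, Atp5g2 and Uqcrc1, the ERR motif in Atp5g3 (on the opposite strand) and the YY1 motif in Ndufa9. A match is a string of letters and not a measured site.

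Genes of the regulators are given beside the 14.6% of all tested genes that were lower and the 28.9% that were higher. Of 14 listed genes for regulators of mitochondrial biogenesis, 12 were tested, 2 were lower and 3 were higher. Nrf1 (−0.14), Yy1 (0.02) and Esrra (−0.35), which encode NRF1, YY1 and the main ERR, did not pass. Gabpa, an ETS factor of respiratory genes, read 4.53 to 8.06 FPKM in Gm31629-/- mice and 1.81 to 2.44 FPKM in WT mice (fold change 1.22, limma adjusted p = 0.00475). Its exons overlap those of Atp5j on the opposite strand, and without strand information their reads cannot be told apart. Hif1a, the hypoxia-inducible factor, rose by 2.25 and Perm1 by 0.76. Ppara, a regulator of fatty acid oxidation, read 0.367 to 1.26 FPKM in Gm31629-/- mice and 4.90 to 9.57 FPKM in WT mice (fold change −2.27, limma adjusted p = 0.00126), and Ppard fell by 0.93. The coactivator Ppargc1a ranged from 1.12 to 11.6 FPKM among Gm31629-/- mice and did not pass.

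Other subunits and carriers gave values on both sides, with 4 of 10 lower and 2 higher, against 14.6% and 28.9% of all tested genes. Cyc1, the cytochrome c1 of complex III, read 171, 112 and 155 FPKM in Gm31629-/- mice and 384, 313 and 403 FPKM in WT mice, a fold change of −1.34 ± 0.21 (limma adjusted p = 0.00269). Cox4i1, the common form of complex IV subunit 4, fell by 0.89, while Cox4i2, the form known from lung and low oxygen, rose by 1.29 from at most 0.338 FPKM in WT mice and met the filter only through the Gm31629-/- group. The ADP/ATP carriers also parted. Slc25a4, the muscle and heart form, read 53.4, 53.1 and 28.2 FPKM in Gm31629-/- mice and 6.16, 6.66 and 6.15 FPKM in WT mice (fold change 2.59, limma adjusted p = 0.000573), whereas the widely expressed Slc25a5 had a fold change of −0.70 that did not pass (limma adjusted p = 0.114). The uncoupling protein Ucp2 fell by 0.98, and Atpif1, which inhibits complex V, by 0.86.

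Genes that build the complexes and express the mitochondrial genome are given beside the same 14.6% of tested genes lower and 28.9% higher. Of 40 tested assembly factors 16 were lower and 2 were higher, with a median of −0.42. Cox10, which makes heme for complex IV, fell by 1.52, Sco1, which loads its copper, by 0.96 and Uqcc1, an assembly factor of complex III, by 0.87. Tmem126b, of complex I assembly, rose by 0.71 and Cox17, a copper chaperone of complex IV, by 0.74. Of 25 tested genes of mitochondrial transcription and translation, 10 were lower and 3 were higher, with a median of −0.35. Tufm, the mitochondrial elongation factor, read 19.0, 29.0 and 29.9 FPKM in Gm31629-/- mice and 83.2, 65.2 and 93.7 FPKM in WT mice (fold change −1.61, limma adjusted p = 0.00182). Taco1, which activates the translation of mt-Co1, fell by 1.42 and Gfm1, an elongation factor, by 1.02. Tfam, which packages and transcribes the mitochondrial genome, had a fold change of −0.02 and did not pass.

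Of 21 tested genes of protein import and the outer membrane, 11 were lower and none was higher by limma, against 14.6% and 28.9% of all tested genes. Their median was −0.59, and none of the 21 had a positive fold change. Tomm40, the channel of the outer membrane, fell by 1.11, Timm50, a receptor of the inner membrane, by 1.07, Vdac3, a porin, by 0.98 and Timm23, the channel of the inner membrane, by 0.84. Tomm20 (−0.29) and Vdac2 (−0.22) did not pass.

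Markers of the cell types in colon moved as well, and their part in the values above was not tested. Their counts are to be read against the 14.6% of all tested genes that were lower and the 28.9% that were higher. Of 15 markers of colon epithelium 7 were lower and none was higher by limma (1, Tspan8, was higher at an unadjusted p under 0.05), with a median of −0.50. Their sum was 8094 to 9589 FPKM in Gm31629-/- mice and 12973 to 14171 FPKM in WT mice. Krt8 (means of 2042 FPKM in Gm31629-/- and 4198 FPKM in WT mice) and Krt19 (1042 and 2068 FPKM) were among the 7 lower. Epcam (1109 and 1104 FPKM) and Cdh1 (395 and 405 FPKM) were nearly level and did not pass. Of the 70 higher markers outside the epithelium, 30 had a WT mean under 0.5 FPKM and met the filter only through the Gm31629-/- group. The mean log2(FPKM + 1) of the 77 nuclear members minus that of the 15 epithelial markers was −2.85, −3.28 and −2.93 in Gm31629-/- mice and −3.20, −3.36 and −3.09 in WT mice, which overlapped. Markers of absorptive colonocytes were lower in 2 and higher in 2 of 9 cases, and goblet cell markers lower in 2 and higher in 4 of 7. Outside the epithelium, higher markers numbered 11 of 11 tested for smooth muscle, 11 of 12 for enteric neurons and glia, 8 of 8 for fibroblasts, 8 of 8 for endothelium and pericytes, 7 of 8 for adipocytes, 6 of 6 for neutrophils, 7 of 8 for macrophages, 5 of 8 for T cells and 6 of 8 for B and plasma cells. Of skeletal muscle markers 1 of 3 tested was higher, and the brown adipocyte marker tested did not pass. No smooth muscle marker was at 0 in a Gm31629-/- mouse.

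Gm31629-/- mouse 2, the lowest for most members, also stood apart in these lists. Absorptive colonocyte markers summed to 2699 FPKM in it, against 7225 and 8854 FPKM in Gm31629-/- mice 1 and 3 and 7625 to 9433 FPKM in WT mice. Fibroblast markers summed to 538 FPKM, against 179 and 332 FPKM, and macrophage markers to 1346 FPKM, against 576 and 683 FPKM, in mice 1 and 3. Its epithelial sum of 8691 FPKM lay between those of the other 2 Gm31629-/- mice.

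**Figure D5:**
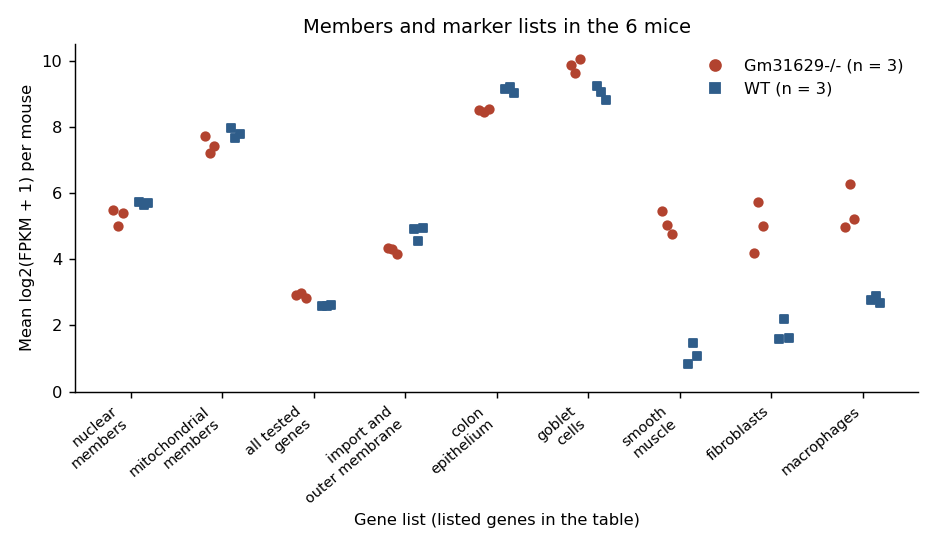
Mean log2(FPKM + 1) in each mouse (vertical axis) of the nuclear and mitochondrial members, of all tested genes and of 6 lists of related or marker genes (horizontal axis). Red circles are Gm31629-/- mice and blue squares WT mice. Nuclear members, import and outer membrane genes and colon epithelium are lower in every Gm31629-/- mouse than in any WT mouse. Goblet cell, smooth muscle, fibroblast and macrophage markers and all tested genes are higher, and mitochondrial members overlap.

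The 3 members under the filter were Ndufb2, Cox6a2 and Cox8b. Ndufb2, an accessory subunit of complex I, read 0.445 to 0.780 FPKM in Gm31629-/- mice and 0.211 to 0.355 FPKM in WT mice, and it shares exon sequence with the overlapping gene Gm42420 on the same strand. Its groups did not overlap, from 46 to 81 fragments against 22 to 36. Cox6a2, the heart and muscle form beside Cox6a1, had at most 5 fragments in any mouse. Cox8b, a muscle and brown fat form, read 1.51, 0.452 and 0 FPKM in Gm31629-/- mice and was listed at 0 in all 3 WT mice, where 0 allows up to 3 fragments, or 0.443 to 0.463 FPKM. A difference in Cox6a2 or Cox8b was not detectable at this depth.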

How the data were processed

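The study sequenced RNA from distal colon of 3 Gm31629-/- and 3 WT mice on DSS. The deposited table gives FPKM, computed by the authors, with a column for each mouse and 27546 genes. The submitters' processing notes name HISAT2 2.1.0, HTSeq 0.6.0, and GRCm38, without roles. The methods speak of pooled RNA, and columns were treated here as separate mice. Whether counting used strand is not given in the sources used here. Symbols, exon lengths, and coding lengths came from GENCODE M21 and matched 27488 identifiers. Fragments were recovered from FPKM, exon length, and depth, where 96.3% to 97.2% of values up to 20 fragments came within 0.1 of a whole number. Limits from fragments cover counting error only.

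Testing used limma (version 3.58.1, R version 4.3.3; lmFit, then eBayes with trend, two-sided) on log2(FPKM + 1), for the 14657 genes averaging 0.5 FPKM or more, and p-values were adjusted by Benjamini-Hochberg across them. The count-based DEGseq of the study was not run. The fit was tested on simulated data. Copies were transcripts of another locus with at least 97% identity over at least 100 bases (blastn 2.17.0). Motifs were matched exactly. Figures were drawn with matplotlib 3.10.9.

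Members and lists were chosen with earlier results of these data known. Named members are those with a log2 fold change beyond 1, the higher ones, the extremes and the most abundant of each complex, the mitochondrial ones, paralogs, and those under the filter. Of related lists, genes past both thresholds and up to 4 others per list with the lowest p were to be named. Subunit classes and further genes named were chosen after values were seen. Alternatives were another pseudocount (0.1), testing all genes, a higher filter (5 FPKM), equal library sums with or without the mitochondrial chromosome, the median ratio, epithelial scaling, eBayes without a trend, a replicate block, leaving out each mouse and, added after seeing the data, voom on the recovered fragments and the mitochondrial members without copies. The values of 1 member are not reported here.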

Additional observations from a re-analysis of the deposited data

How the results depend on the processing

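Counts stayed within 1.5 times and medians within the spread between mice with the pseudocount of 0.1, no filter, equal library sums with or without the mitochondrial chromosome, eBayes without a trend and voom on recovered fragments, although under each of these 0 to 5 of the 89 tested members crossed the threshold. With the filter at 5 FPKM, 2 members were higher and 0 with the fold threshold, since Ndufa4l2 and Cox6b2 are then not tested, and 31 related genes were called in place of 53. With the median ratio, which moved the median of all tested genes from 0.15 to 0.017, 2 members were higher, 17 were lower with the fold threshold, and the complex I median was −0.55. With epithelial scaling, which moved it to 0.61, 6 members were lower and 17 higher, 6 were higher and 0 lower with the fold threshold (none had a log2 fold change below −1), and 29 related genes were called. Medians were then 0.13 for nuclear and 0.18 for mitochondrial members, 0.19 for complex I, −0.22 for II, −0.028 for III, 0.28 for IV, and 0.049 for V. This scaling shifts all genes of a library alike, and 43 of the 89 tested members changed sign, of which 10 had passed in either fit, namely Ndufa3 (0.45), Ndufa4 (0.59), Ndufa8 (0.019), Ndufb11 (0.051), Ndufb8 (0.044), Ndufc2 (0.11), Ndufs3 (0.024), Sdhc (0.071), Cox7a2l (0.052), and Atp5f1 (0.049). Of all calls, 66.5% were higher as reported, 55.4% with the median ratio, 93.7% with epithelial scaling, and 48.0% with the filter at 5 FPKM. Beyond these constructions the cause was not tested. Leaving out each mouse gave 18 to 37 lower members, 1 to 8 higher, 6 to 14 lower and 1 to 3 higher with the fold threshold, and 25 to 45 related genes called. Over all tested genes, 978 to 1977 were lower in these fits. Medians in the fits that leave out a mouse ranged from −0.59 to −0.27 for nuclear and −0.53 to −0.21 for mitochondrial members, −0.49 to −0.27 for complex I, −0.97 to −0.64 for II, −0.78 to −0.45 for III, −0.45 to −0.077 for IV, and −0.68 to −0.45 for V. A fit with a replicate block gave 33 lower and 4 higher members, 11 and 2 with the fold threshold, and 37 related genes called. Deviations of same-numbered mice correlated at 0.036, −0.108, and 0.014, within the range of differently numbered mice (−0.133 to 0.116). No pairing by number was seen, but with 3 mice per group these correlations cannot exclude one. Values of a few fragments, as for mt-Nd4l, are limited by depth.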
